A study of Mus musculus with 12 samples.

Results

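Transcripts of the 7 sarcomeric myosin heavy chain genes Myh1, Myh2, Myh3, Myh4, Myh6, Myh7 and Myh8 were followed in hind limb skeletal muscle of αB-crystallin/HspB2 knockout (KO) and wild type (WT) mice. They were chosen by symbol, and were 7 of the 22923 gene symbols listed for each library. The muscle came from 12 male mice at 22 weeks of age, of a strain given as FVB in the labels and FVB/N in the study's methods, with 3 libraries in each of 4 groups, namely WT fed normal chow (WT chow), WT fed a high fat diet (WT HFD), KO fed normal chow (KO chow) and KO fed the high fat diet (KO HFD). The KO mice lack Cryab, the gene for αB-crystallin, and its neighbour Hspb2 in all tissues from birth, so that both diets were given to mice that had never had either small heat shock protein. Titles call the WT mice Flox, and no Cre recombinase is named. Groups follow the titles, because the genotype entry of 6 libraries disagrees with their own title (all 3 of WT HFD, replicate 3 of KO chow and replicates 1 and 2 of KO HFD). The transcripts of the deleted genes followed the titles. Cryab lay between 412 and 837 FPKM in the 6 WT libraries and between 0.845 and 1.75 FPKM in the 6 KO libraries, and Hspb2 lay between 81.5 and 103 FPKM against 0.353 and 1.92 FPKM.

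Myosin heavy chains are the motor proteins of the thick filament of the sarcomere, where they hydrolyse ATP and pull on actin. The isoform a fibre makes sets how fast it shortens, and fibres are typed by it. Myh7 marks slow type I fibres and is also the β chain of the heart, Myh2 marks fast oxidative IIa fibres, Myh1 the IIx fibres and Myh4 the fastest, glycolytic IIb fibres. Myh6 is the α chain of the heart, Myh3 the embryonic chain and Myh8 the perinatal chain, and the developmental chains are made again when adult fibres regenerate. In mouse limb muscle IIb and IIx fibres are common and slow fibres are few outside the soleus.

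In the GENCODE M21 annotation of GRCm38, the assembly also called mm10, 5 of the genes stand in one row on the plus strand of chromosome 11 within 230335 bp. They are Myh3 (chr11:67078300-67102291), Myh2 (chr11:67171027-67197517), Myh1 (chr11:67200052-67224575), Myh4 (chr11:67238029-67260446) and Myh8 (chr11:67277124-67308634). The gap between Myh2 and Myh1 is 2534 bp. Myh6 (chr14:54941921-54966927) and Myh7 (chr14:54970684-54994626) lie on the minus strand of chromosome 14, 3756 bp apart. The coding sequences are of nearly one length, between 5808 and 5829 bases. The 60-base coding stretch, free of gaps and within an exon, in which the members together differed most from Myh1 is shown for each. It runs 5′ to 3′ on the coding strand, with capitals where a base differs from Myh1.
Myh1 (chr11:67211465-67211524, plus strand, exon 22): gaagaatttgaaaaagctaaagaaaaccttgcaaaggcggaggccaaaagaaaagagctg
Myh2 (chr11:67186621-67186680, plus strand, exon 21): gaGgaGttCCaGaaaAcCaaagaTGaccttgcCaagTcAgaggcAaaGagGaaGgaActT
Myh4 (chr11:67250888-67250947, plus strand, exon 21): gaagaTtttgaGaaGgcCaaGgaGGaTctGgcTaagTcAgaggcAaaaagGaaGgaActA
Myh8 (chr11:67294493-67294552, plus strand, exon 22): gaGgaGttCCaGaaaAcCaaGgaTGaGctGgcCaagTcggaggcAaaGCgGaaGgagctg
Myh3 (chr11:67092019-67092078, plus strand, exon 21): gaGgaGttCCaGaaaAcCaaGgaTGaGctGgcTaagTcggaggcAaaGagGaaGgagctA
Myh6 (chr14:54953758-54953817, minus strand, exon 21): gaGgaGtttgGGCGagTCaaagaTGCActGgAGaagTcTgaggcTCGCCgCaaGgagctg
Myh7 (chr14:54984611-54984670, minus strand, exon 23): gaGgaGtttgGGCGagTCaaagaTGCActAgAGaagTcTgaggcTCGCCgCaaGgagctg
Myh2 differed from its neighbour Myh1 at 18 of these 60 bases, and Myh4 at 17. The cardiac pair differed from Myh1 at 24 bases each but from one another at 1. Myh3 and Myh8 differed from one another at 3, and Myh2 differed from each of them at 7. Over the whole coding sequence Myh6 and Myh7 were 91.8% identical, Myh2 and Myh1 91.1%, Myh1 and Myh4 90.2%, and Myh3 was 77.9 to 81.8% identical to the others. Reads were 100 bases long, and the share of 100-base windows of a coding sequence that occur unchanged in another of the 7 genes was 12.01% for Myh6, 12.03% for Myh7, 9.88% for Myh1, 9.58% for Myh2, 5.48% for Myh8, 3.99% for Myh4 and 0% for Myh3. The longest stretch that Myh6 and Myh7 share, 245 bases across exons 30 and 31 of Myh6 (chr14:54948327-54948725, with the intron) and exons 32 and 33 of Myh7 (chr14:54974947-54975347), is shown in lower case because no base in it separates the genes.
Myh6 and Myh7: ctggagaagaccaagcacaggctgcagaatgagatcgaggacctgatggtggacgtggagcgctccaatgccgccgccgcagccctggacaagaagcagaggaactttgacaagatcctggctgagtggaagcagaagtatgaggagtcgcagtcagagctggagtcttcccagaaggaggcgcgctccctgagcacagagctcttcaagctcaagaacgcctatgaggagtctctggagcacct
How the counting divided reads from such stretches is not given in the sources used here, so the levels of Myh6 and Myh7 and those of Myh1, Myh2, Myh4 and Myh8 carry that uncertainty. Myh3 shared no whole window, but its longest identical runs were 94 bases with Myh1 and 86 bases with Myh2. Untranslated parts, other genes and inexact matches were not examined, so that misplaced reads are not excluded for its low values.

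The deposited values are FPKM, fragments scaled to the length of the transcript and to the mapped fragments of the library, and can therefore be compared between genes. Read depth per library is unknown, the totals lay between 499509 and 691621 FPKM in 11 libraries, and the relative depths read from the smallest values differed by at most 1.35 times. In 1 library, replicate 3 of KO chow, the total was 1.07e+07 FPKM because of 1 microRNA entry, Mir324, and 484182 FPKM without it. Markers of muscle fibres, 6 genes summed, lay between 35553 and 62299 FPKM in all libraries, while 6 heart muscle markers together reached 1.57 to 9.45 FPKM. No pair of the 12 libraries was identical. The study's methods call the samples independent, and replicate numbers only name them.

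Myh1 was the most abundant of the measured isoforms, with a mean of 649 FPKM over the 12 libraries, rank 104 of all symbols. Myh2 followed with 283 FPKM, Myh7 with 65.1 FPKM, Myh8 with 30.6 FPKM, Myh6 with 13.0 FPKM and Myh3 with 2.47 FPKM. Myh1 stood above Myh2 and Myh2 above Myh7 in 12 of 12 libraries, by 1.46 to 6.81 times and 2.61 to 64.0 times. Myh7 stood above Myh8 in 10 libraries and below it in 2, so that this pair was not separated beyond the spread between libraries. Myh8 stood above Myh6 in 12 of 12 libraries and Myh6 above Myh3 in 11. Myh4 was listed at exactly 0 in all 12 libraries. An exact 0 in such a table can be a failed estimate. Acta1, the main actin of skeletal muscle with a median of 29527 FPKM, was listed at 0 in 2 of the same libraries, and Ldb3, a Z-disc gene with a median of 962 FPKM, in 1. No level, fold or share is therefore given for Myh4, the IIb chain.

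**Figure D1:**
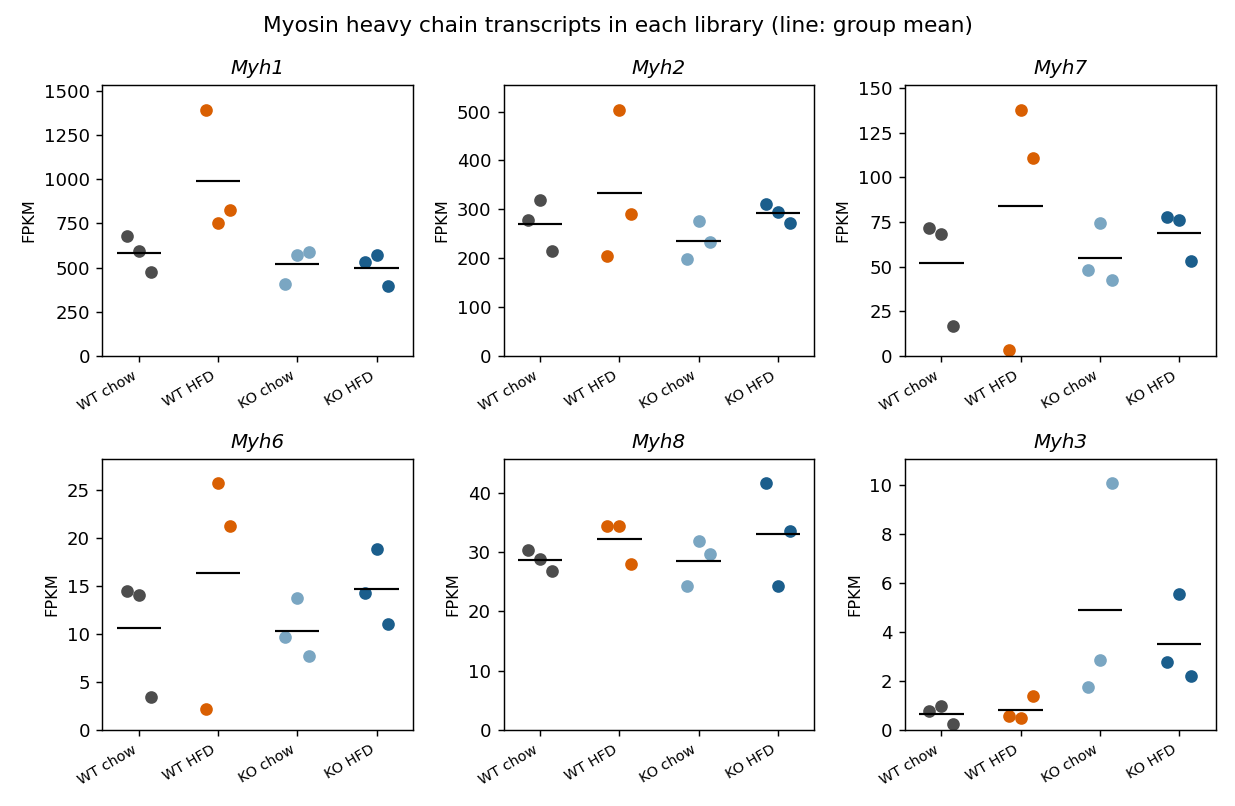
FPKM (y axis, linear, one scale per gene, from 0) of the 6 isoforms with values above 0 in each of the 12 libraries, by group on the x axis (HFD, high fat diet), with one point per library and a line at the group mean. Myh1 reaches 1393 FPKM in 1 library of WT HFD mice, Myh7 and Myh6 are lowest in that same library, Myh8 keeps between 24.2 and 41.6 FPKM throughout, and all 6 KO points of Myh3 lie above all 6 WT points.

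The diet was compared within each genotype and the genotype within each diet, by fitting log2(FPKM + 1) in limma to 11945 genes that reached 1 FPKM in at least 3 libraries, so that folds of low genes are understated. A gene passed at an adjusted p under 0.05 (Benjamini-Hochberg over all genes tested). Of the 7 isoforms 6 entered the test, and Myh4 did not. None of the 6 passed in any comparison. In the same comparisons 0.1% of all genes passed for diet in WT mice, 0% for diet in KO mice, 0.0586% for genotype on normal chow, 0.109% for genotype on high fat diet, 0% for the interaction of diet and genotype, 0.0586% for diet averaged over the genotypes and 0.871% for genotype averaged over the diets. At an unadjusted p under 0.05 in limma there were 1 isoform for diet in WT mice (Myh1, background 8.13% of genes), 0 for diet in KO mice (11.3%), 1 for genotype on normal chow (Myh3, 16.7%), 2 for genotype on high fat diet (Myh1 and Myh3, 16.3%), 1 for the interaction (Myh1, 6.25%), 0 for diet averaged (14%) and 2 for genotype averaged (Myh1 and Myh3, 26.6%). Comparisons that use the same group share its 3 libraries and are not independent of each other.

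Myh1, the IIx chain, was highest in WT HFD mice. It was 677, 592 and 475 FPKM in replicates 1 to 3 of WT chow mice and 1393, 752 and 828 FPKM in WT HFD mice. The corresponding values were 407, 570 and 591 FPKM in KO chow mice and 531, 570 and 397 FPKM in KO HFD mice. All 3 libraries of WT HFD mice stood above all 9 others, whereas the other 3 groups overlapped. The group means were 581 ± 102, 991 ± 350, 523 ± 101 and 499 ± 90.9 FPKM (SD, n = 3 each). Groups that did not overlap were found for 6.2% of all genes in the direction of higher on high fat diet in WT mice, and for 10.7% in the direction of lower in KO HFD than in WT HFD mice. The share of genes with 3 libraries of a group beyond the 9 others was not computed.

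The log2 difference of Myh1 between the diets was 0.73 ± 0.25 (SE) in WT mice (limma adjusted p = 0.373, unadjusted 0.0132) and -0.064 ± 0.25 in KO mice (adjusted p = 0.920). Between KO and WT mice it was -0.16 ± 0.25 on normal chow (adjusted p = 0.728) and -0.95 ± 0.25 on high fat diet (adjusted p = 0.104, unadjusted 0.00269). The interaction, the diet difference in KO minus that in WT mice, was -0.79 with a 95% interval from -1.56 to -0.025 (adjusted p = 0.789, unadjusted 0.0442), and the difference between genotypes averaged over the diets was -0.55 ± 0.17 (adjusted p = 0.0928). One library, replicate 1 of WT HFD mice, held much of the size. Without it the diet difference in WT mice was 0.46 (adjusted p = 0.880), the genotype difference on high fat diet -0.68 (adjusted p = 0.314) and the interaction -0.52 (adjusted p = 0.758). The signs were unchanged. Tendon markers moved with the same group. Their 4 genes summed to 164 to 319 FPKM in WT HFD mice and to 12.4 to 120 FPKM in the other 9 libraries, with none at 0 throughout a group. Within WT HFD mice the tendon sum ran opposite to Myh1. It was lowest, 164 FPKM, in replicate 1, where Myh1 was highest, and highest, 319 FPKM, in replicate 2, where Myh1 was lowest. Replicate 1 of WT HFD mice also had the lowest adipocyte marker sum, 5.90 FPKM against at least 107.5 FPKM in every other library. Its macrophage marker sum was lowest too, 9.97 FPKM against at least 26.2 FPKM. The part that any of these cells had in the Myh1 values was not tested. In bulk muscle fewer cells of a type and less RNA per cell cannot be told apart.

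Myh2, the IIa chain, overlapped between all groups. Its values were 278, 320 and 215 FPKM in WT chow mice, 204, 504 and 290 FPKM in WT HFD mice, 199, 276 and 234 FPKM in KO chow mice and 312, 294 and 272 FPKM in KO HFD mice. Both the second lowest and the highest of the 12 values belonged to WT HFD mice, whose coefficient of variation was 46.3% against 6.85% in KO mice on the same diet. The log2 difference for diet averaged over the genotypes was 0.27, with a 95% interval from -0.16 to 0.69 (limma adjusted p = 0.507). For genotype averaged over the diets it was -0.14, with an interval from -0.56 to 0.29 (adjusted p = 0.662).

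Myh7, the slow chain, varied more between the libraries of a group than between groups. WT chow mice had 71.9, 68.4 and 16.9 FPKM, and WT HFD mice had 3.20, 138 and 111 FPKM. KO chow mice had 48.3, 74.3 and 42.8 FPKM, and KO HFD mice had 77.7, 76.2 and 53.0 FPKM. The lowest and the highest of all 12 values were thus in WT HFD mice, a range of 43.2 times, while the 6 KO libraries spanned 1.81 times. On the log scale the difference for genotype averaged over the diets was 0.53, with an interval from -1.15 to 2.21 (adjusted p = 0.675), although the mean FPKM was lower in KO mice (62.0 ± 15.7) than in WT mice (68.2 ± 52.1, SD, n = 6 each). Its sign turned to -0.29 without replicate 1 of WT HFD mice, and to -0.62 without that library and replicate 3 of WT chow mice, the other low one. For diet averaged over the genotypes the difference was 0.091, from -1.59 to 1.77 (adjusted p = 0.966), and became -0.24, -0.36 and -0.28 when replicate 3 of WT chow mice, or replicate 2 or 3 of WT HFD mice, was left out. No direction can be given for Myh7.

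Myh6 followed Myh7 at a lower level. It was 14.5, 14.1 and 3.47 FPKM in WT chow mice, 2.16, 25.7 and 21.3 FPKM in WT HFD mice, 9.69, 13.7 and 7.66 FPKM in KO chow mice and 14.3, 18.9 and 11.01 FPKM in KO HFD mice. The same WT libraries were low for both genes, and the groups overlapped. The ratio of Myh6 to Myh7 lay between 0.179 and 0.248 in 11 libraries and was 0.677 in replicate 1 of WT HFD mice, where Myh7 was at 3.20 FPKM. The 6 heart muscle markers summed to 1.57 to 3.17 FPKM in WT chow mice, 3.28 to 4.92 FPKM in WT HFD mice, 2.95 to 5.65 FPKM in KO chow mice and 3.17 to 9.45 FPKM in KO HFD mice. The sum was 3.28 FPKM in replicate 2 of WT HFD mice, which had the highest Myh6, and 9.45 FPKM in replicate 2 of KO HFD mice, where Myh6 was highest of the KO libraries. Much of the sum came from Tnnt2 (1.35 to 4.17 FPKM in WT and 2.48 to 8.16 FPKM in KO libraries), which is also on the list of regenerating and developing muscle. Nppb, a natriuretic peptide gene of the heart, and Mybpc3, the cardiac myosin-binding protein C, were listed at 0 in all 6 WT libraries and reached 0.234 and 0.0237 FPKM in KO libraries. Myl7 reached 0.0970 FPKM in WT and 0.591 FPKM in KO libraries. Nppa reached 0.215 and 0.194 FPKM, and Tnni3 lay between 0.220 and 0.530 FPKM in WT and 0.151 and 0.396 FPKM in KO libraries. The part of heart muscle in the Myh6 values was not tested. The log2 difference of Myh6 was 0.38 for diet averaged (from -0.74 to 1.499, adjusted p = 0.722) and 0.22 for genotype averaged (from -0.90 to 1.34, adjusted p = 0.799), and the latter became -0.27 without replicate 1 of WT HFD mice and -0.072 without replicate 3 of WT chow mice.

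Myh8, the perinatal chain, was the steadiest member. It was 30.3, 28.8 and 26.9 FPKM in WT chow mice, 34.3, 34.4 and 27.9 FPKM in WT HFD mice, 24.2, 31.9 and 29.6 FPKM in KO chow mice and 41.6, 24.2 and 33.5 FPKM in KO HFD mice. All groups overlapped, and the 12 values had a coefficient of variation of 16.0%, against 28.5% for Myh2, 41.1% for Myh1, 52.8% for Myh6, 56.6% for Myh7 and 114% for Myh3. The log2 difference was 0.17 for diet averaged (from -0.10 to 0.44, adjusted p = 0.505) and 2.68e-04 for genotype averaged (from -0.27 to 0.27, adjusted p = 0.999).

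Myh3, the embryonic chain, was higher in every KO library than in any WT library. It was 0.763, 0.980 and 0.235 FPKM in WT chow mice and 0.577, 0.474 and 1.38 FPKM in WT HFD mice. It was 1.74, 2.86 and 10.1 FPKM in KO chow mice and 2.78, 5.57 and 2.19 FPKM in KO HFD mice. The lowest KO value, 1.74 FPKM, lay above the highest WT value, 1.38 FPKM, and the means were 4.20 ± 3.18 and 0.734 ± 0.403 FPKM (SD, n = 6 each), a ratio of 5.73. Groups did not overlap in that direction for 8.15% of all genes on normal chow and for 13% on high fat diet, and 1.72% of all genes had every KO library above every WT library. In limma the log2 difference averaged over the diets was 1.43 ± 0.32 (adjusted p = 0.0584, unadjusted 9.67e-04), which missed the threshold. Of the 6 WT libraries 5 were under 1 FPKM, and of the 6 KO libraries 0. Myh3 thus passed the filter on level only through the KO libraries, where it was higher. Its limma values and the shares of all genes beside it are therefore a description.

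The difference of Myh3 was 1.59 ± 0.46 on normal chow (adjusted p = 0.269) and 1.28 ± 0.46 on high fat diet (adjusted p = 0.195), and the interaction was -0.31, from -1.72 to 1.11. Diet moved it by 0.12 in WT mice and -0.19 in KO mice, with intervals from -0.88 to 1.12 and from -1.19 to 0.81. The value of 10.1 FPKM in replicate 3 of KO chow mice, the library with the outlying total, carried a part of the difference. Without it the difference on normal chow was 1.00 (adjusted p = 0.626) and the averaged one 1.14 (adjusted p = 0.0905). The averaged difference passed when replicate 3 of WT HFD mice (1.54, adjusted p = 0.0429) or replicate 2 of KO chow mice (1.52, adjusted p = 0.0369) was left out. Over all alternatives its adjusted p lay between 0.0369 and 0.180, and the log2 difference was 2.25 with a pseudocount of 0.1 (adjusted p = 0.0505), which shrinks low values less. Myh3 stayed a minor transcript, at most 1.103% of the summed isoforms. Macrophage markers were also higher in every KO library, with 4 measured genes summing to 9.97 to 39.5 FPKM in WT and 43.4 to 89.7 FPKM in KO mice and none at 0 throughout a group. Their part in the Myh3 values was not tested.

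**Figure D2:**
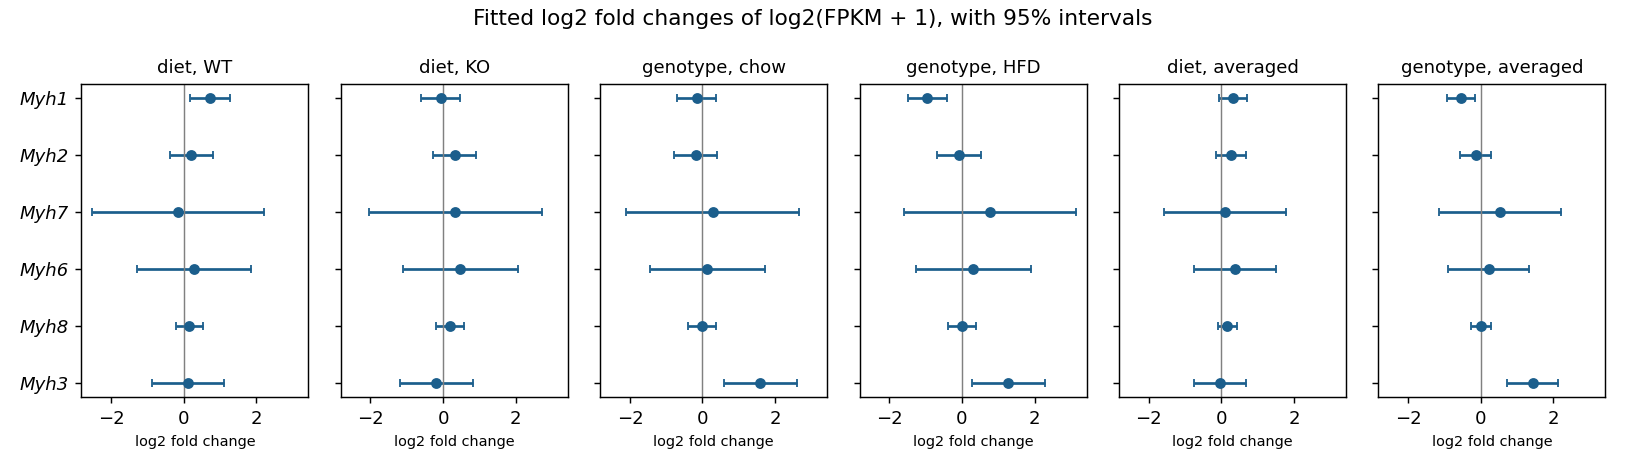
Fitted differences of log2(FPKM + 1) (x axis, log2 fold change, with a line at 0) of the 6 isoforms in 6 comparisons, high fat diet minus normal chow or KO minus WT, with limma's 95% intervals as bars. Before adjustment the intervals leave out 0 for Myh1 in diet in WT (0.19 to 1.27), genotype on high fat diet (-1.49 to -0.41) and genotype averaged (-0.94 to -0.17), and for Myh3 in genotype on normal chow (0.59 to 2.59), on high fat diet (0.28 to 2.28) and averaged (0.73 to 2.14), while those of Myh7 and Myh6 are the widest.

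Fibre-type shares were taken as the percentage of each isoform in the summed FPKM of the 6 isoforms with values, since Myh4 was listed at 0. They are shares of this sum and not of all myosin. The sum was 945 ± 182 FPKM in WT chow mice, 1457 ± 179 FPKM in WT HFD mice, 858 ± 148 FPKM in KO chow mice and 912 ± 125 FPKM in KO HFD mice (SD, n = 3 each). It lay between 1280 and 1638 FPKM in WT HFD mice and at most at 1073 FPKM in the other libraries. Myh1 made up the greater part of the sum in all 12 libraries, from 51.6 to 85.1%.

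The share of Myh1 was 63.1, 57.8 and 64.4% in WT chow mice, 85.1, 51.7 and 64.7% in WT HFD mice, 59.0, 58.9 and 64.6% in KO chow mice and 54.2, 57.6 and 51.6% in KO HFD mice. Replicate 1 of WT HFD mice stood far above the rest and a second library of the same group was near the bottom. The group means were 61.8 ± 3.49, 67.1 ± 16.8, 60.8 ± 3.28 and 54.5 ± 2.996% (SD, n = 3 each). For diet in WT mice the difference in mean share was 5.36 points, and -3.59 points without that 1 library. In KO mice the high fat diet libraries all lay below the normal chow libraries, with a difference of -6.32 points (two-sided exact permutation p = 0.1, the smallest that 3 against 3 can give, 0.859 after adjustment over the 18 share tests).

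The share of Myh2 was 25.9, 31.2 and 29.1% in WT chow mice, 12.48, 34.6 and 22.7% in WT HFD mice, 28.9, 28.5 and 25.6% in KO chow mice and 31.8, 29.8 and 35.4% in KO HFD mice. In KO mice every high fat diet library lay above every normal chow library, with a difference of 4.70 points (exact permutation p = 0.1, adjusted p = 0.859). The shares of a library add up to 100%, so that the change of Myh2 and that of Myh1 in KO mice are not separate observations. In WT mice the difference of the Myh2 share was -5.50 points, with overlapping groups, and -0.10 points without replicate 1 of that group.

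The share of Myh7 was 6.70, 6.67 and 2.29% in WT chow mice, 0.195, 9.48 and 8.68% in WT HFD mice, 6.999, 7.67 and 4.68% in KO chow mice and 7.94, 7.70 and 6.90% in KO HFD mice. KO HFD mice had the narrowest group (7.51 ± 0.546%, SD, n = 3) and WT HFD mice the widest (6.12 ± 5.15%). The groups overlapped for diet within each genotype and for genotype within each diet, whereas all 3 values of KO HFD mice lay above all 3 of WT chow mice, a pair that differs in both. None of the 18 tests of the Myh1, Myh2 and Myh7 shares passed, with adjusted p from 0.859 to 1 (exact permutation, two-sided). The exact permutation test of the averaged comparisons could have reached p = 0.005, and the smallest p it gave was 0.245, for the Myh1 share between genotypes. Myh8 took 2.21 to 3.69% of the sum as a group mean, Myh6 1.07 to 1.60% and Myh3 0.0584 to 0.550%. By library the Myh8 share was 2.09 to 2.36% in WT HFD mice and at least 2.45% in all others. The Myh3 share was 0.0319 to 0.107% in WT and 0.252 to 1.103% in KO libraries. The shares of Myh8, Myh6 and Myh3 were not tested.

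**Figure D3:**
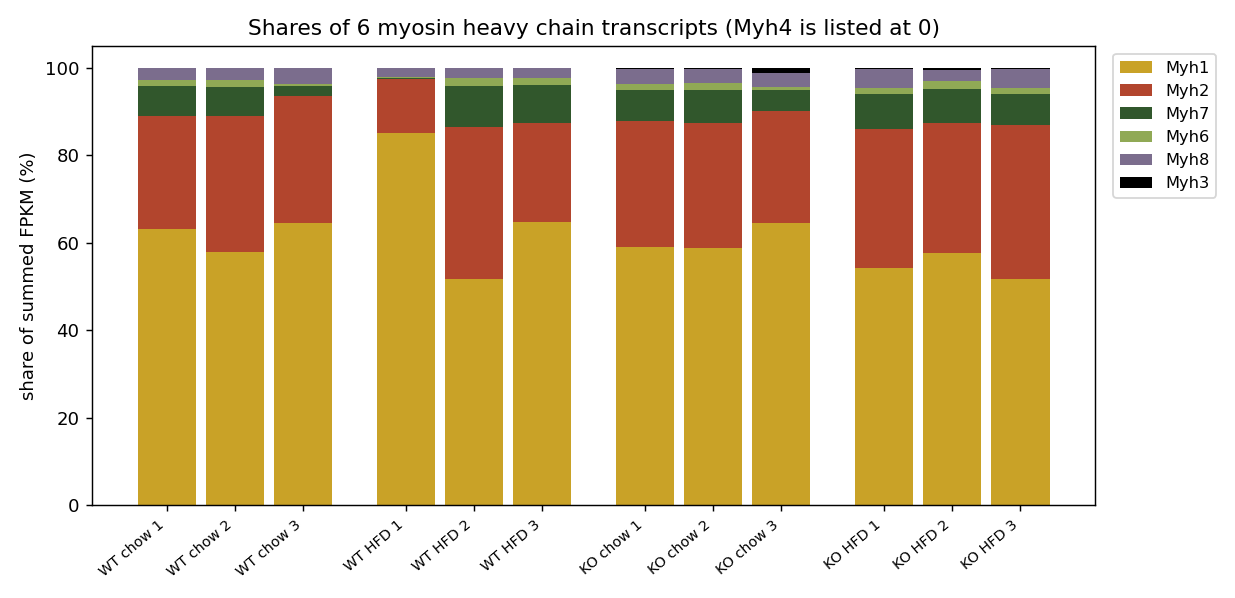
Stacked bars of the share of each of 6 isoforms in their summed FPKM (y axis, percent, from 0 to 100) for each of the 12 libraries (x axis, HFD, high fat diet). Myh1 takes 85.1% and Myh7 0.195% in replicate 1 of WT HFD mice, and the 3 libraries of KO HFD mice are alike, with Myh7 between 6.90 and 7.94%.

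The other genes of the slow programme had positive fitted differences for the diet, and none of them passed. Those that followed Myh7 most closely had wide spreads in WT mice, so that no direction can be given for them. Of 12 slow-fibre genes fixed as a list, 12 had a positive log2 difference for diet averaged over the genotypes, with a median of 0.48 against 0.0084 over all genes tested, and 0 passed in limma (3 at an unadjusted p under 0.05, against 7.99% of all genes in that direction). Myl2, the slow regulatory light chain, showed the WT split of Myh7 again, with 333, 262 and 77.4 FPKM in WT chow mice and 41.8, 744 and 578 FPKM in WT HFD mice. Mybpc1, the slow myosin-binding protein C, did not. It was 316, 337 and 204 FPKM in WT chow mice, 870, 556 and 498 FPKM in WT HFD mice, 256, 325 and 259 FPKM in KO chow mice and 280, 387 and 305 FPKM in KO HFD mice. It was highest in the library with the lowest Myh7, and all 3 values of WT HFD mice stood above the other 9, as for Myh1 (for diet in WT mice 6.2% of all genes had no overlap in that direction). Its log2 difference for diet was 1.15 in WT mice (limma adjusted p = 0.110) and 0.20 in KO mice (adjusted p = 0.714). Myh7b, a slow myosin chain of another locus, was between 0.674 and 3.16 FPKM, with a difference of 0.47 for diet averaged (adjusted p = 0.218). For diet in WT mice 3 of the list were higher at an unadjusted p under 0.05 in limma, namely Mybpc1, Casq2 and Myh7b (8.13% of all genes in either direction). Casq2 (17.3 FPKM) and Myh7b (2.09 FPKM) were not low in replicate 1 of WT HFD mice either. Tnnc1, Tnnt1 and Atp2a2, which followed Myh7, differed by 0.16 ± 0.96, 0.24 ± 0.96 and 0.047 ± 0.74 (SE) in WT mice.

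Fast-fibre genes had negative differences between the genotypes on normal chow, and none of them passed. Of 13, 0 had a positive difference, the median was -0.34 against -0.026 over all genes, 3 were lower at an unadjusted p under 0.05 (9.9% of all genes in that direction) and 0 passed in limma. On high fat diet 7 of the 13 had a positive difference between the genotypes, with a median of 0.050. For diet in KO mice 13 of 13 were positive, with a median of 0.34 against 0.029 over all genes, 4 were higher at an unadjusted p under 0.05 (6.56% of all genes in that direction) and 0 passed. The diet comparison in KO mice shares the KO chow libraries with the first and the KO HFD libraries with the second. Tnnc2, the fast troponin C, was 20243, 14082 and 17575 FPKM in WT chow mice and 12816, 15561 and 10315 FPKM in KO chow mice, and these groups overlapped. Averaged over the diets, Tnnc2 differed between the genotypes by -0.28 (adjusted p = 0.197), Tnnt3, the fast troponin T, by -0.19 (0.324), Mylk2, the skeletal myosin light chain kinase, by -0.36 (0.124) and Casq1, the fast calsequestrin, by -0.064 (0.776), all limma adjusted p. Markers of other tissue were higher in the same KO libraries. The 5 adipocyte markers summed to 815 to 1729 FPKM in KO chow mice and 112 to 729 FPKM in WT chow mice, and 8 lymphocyte markers reached 75.9 and 76.2 FPKM in 2 of those KO libraries and 66.9 FPKM in 1 of the WT libraries. The part of these tissues in the list's difference was not tested. The 6 muscle fibre markers summed to 35553 to 51696 FPKM in KO chow against 44908 to 62299 FPKM in WT chow mice. Tnnt3 and Mylpf stand in both that sum and the fast-fibre list, so that the sum is no separate observation.

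Among 7 other myosin heavy chains, 6 were tested and 0 passed. Myh9, a non-muscle chain, was between 11.4 and 24.9 FPKM in the 12 libraries. Myh14, another non-muscle chain, was between 7.48 and 12.1 FPKM, and differed between the genotypes by 0.083 (limma adjusted p = 0.650). Myh10, the non-muscle chain IIB, was between 1.33 and 3.99 FPKM and differed by 0.46 between the genotypes, averaged over the diets (adjusted p = 0.0770). Of 14 genes that build or guard the thick filament, 0 passed. Mybph, myosin-binding protein H, was the one with the widest spread, at 180, 107 and 167 FPKM in WT chow mice and 6.89, 39.9 and 93.2 FPKM in WT HFD mice, against 125 to 216 FPKM in the 6 KO libraries. Its 3 values in WT HFD mice lay below all others (13% of all genes had no overlap in the direction of higher in KO HFD than in WT HFD mice). The averaged difference of Mybph between genotypes was 1.32 (limma adjusted p = 0.120). Mybpc2, the fast myosin-binding protein C, and Hsp90ab1, a cytosolic chaperone, differed between the genotypes by -8.08e-04 and -0.068.

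Of 26 regulators of fibre type, 25 were tested and 0 passed. For genotype averaged over the diets 2 were higher and 6 lower at an unadjusted p under 0.05, against 13.1 and 13.4% of all genes, and their median was -0.17 against -0.022. Mef2c, a transcription factor of muscle genes, differed by 0.19 (limma adjusted p = 0.318) and Tbx15, a factor of glycolytic fibres, by -0.29 (0.188). Ppargc1b, a coactivator of oxidative metabolism, was 0.998, 0.875 and 0.985 FPKM in WT chow mice and 2.18, 1.69 and 1.43 FPKM in WT HFD mice, with no overlap (6.2% of all genes in that direction). It differed by 0.28 for diet averaged (limma adjusted p = 0.203).

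Of the genes of regenerating and developing muscle, 2 passed between the genotypes. Of 16 on the list, 12 were tested, since Pax7, Myf5, Chrng and Dlk1 were too low. The list was chosen with earlier results of these data known, and the paper had already reported Ankrd1 among the genes most raised in KO mice on both diets. The counts beside the shares of all genes are therefore a description and not an independent test. For genotype averaged over the diets 2 rose in KO mice (Myl4 and Ankrd1, against 0.645% of all genes called higher), 7 were higher and 1 lower at an unadjusted p under 0.05, and the median was 0.83 against -0.022 over all genes. The macrophage markers were split by genotype in the same way, at 9.97 to 39.5 FPKM in WT and 43.4 to 89.7 FPKM in KO mice, and their part in the list and in its 2 calls was not tested. Myl4, the embryonic and atrial light chain that partners developmental myosin, was 8.06, 8.74 and 8.39 FPKM in WT chow mice and 8.44, 5.93 and 12.1 FPKM in WT HFD mice. It was 18.4, 24.7 and 40.7 FPKM in KO chow mice and 28.9, 73.1 and 30.3 FPKM in KO HFD mice. Every KO library stood above every WT library, which held for 1.72% of all genes, and the log2 difference was 1.83 ± 0.26 (limma adjusted p = 0.0169).

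Ankrd1, a stress-responsive ankyrin repeat protein of the sarcomere that is made in regenerating and denervated muscle, was 1.25, 2.15 and 1.04 FPKM in WT chow mice and 7.13, 3.33 and 4.14 FPKM in WT HFD mice. It was 9.95, 17.5 and 76.3 FPKM in KO chow mice and 27.5, 91.3 and 22.7 FPKM in KO HFD mice. The groups did not overlap by genotype (1.72% of all genes in that direction), and the difference was 3.09 ± 0.47 (limma adjusted p = 0.0203). Both calls were narrow. Without replicate 1 of WT chow mice the adjusted p was 0.0562 for Myl4 and 0.0635 for Ankrd1, and without replicate 2 of KO HFD mice it was 0.0509 for Ankrd1. Without both WT libraries of low Myh7 it was 0.0777 for each.

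Other members of the list had like values without passing. Tmem8c, the fusion factor myomaker, was 0.176 to 2.22 FPKM in WT and 1.26 to 7.41 FPKM in KO mice (difference 1.35, limma adjusted p = 0.0689). Like Myh3, Tmem8c was under 1 FPKM in 5 of the 6 WT libraries and passed the filter only through the KO libraries. Myog, the factor of differentiating myoblasts, differed by 0.96 (limma adjusted p = 0.0631) and Chrna1, the acetylcholine receptor subunit of the motor endplate, by 0.84 (0.0584). Chrna1 did not overlap between the genotypes, which held for 1.72% of all genes in that direction. The gap was narrow, from 6.60 FPKM in WT to 6.86 FPKM in KO libraries. Ncam1, an adhesion molecule of denervated and young fibres, differed by 0.82 (0.0838) and Actc1, the cardiac actin of developing muscle, by 1.32 (0.124). H19, an imprinted RNA of fetal muscle, differed by -0.033 (0.955). Myod1, the determination factor of myoblasts, was the one gene of the list with a negative difference at an unadjusted p under 0.05. Tmem8c, Myog, Chrna1, Ncam1 and Myod1 were named after their values were seen. Replicate 3 of KO chow mice and replicate 2 of KO HFD mice were the highest KO libraries of their groups for Myh3, Ankrd1, Myl4 and Tmem8c alike.

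**Figure D4:**
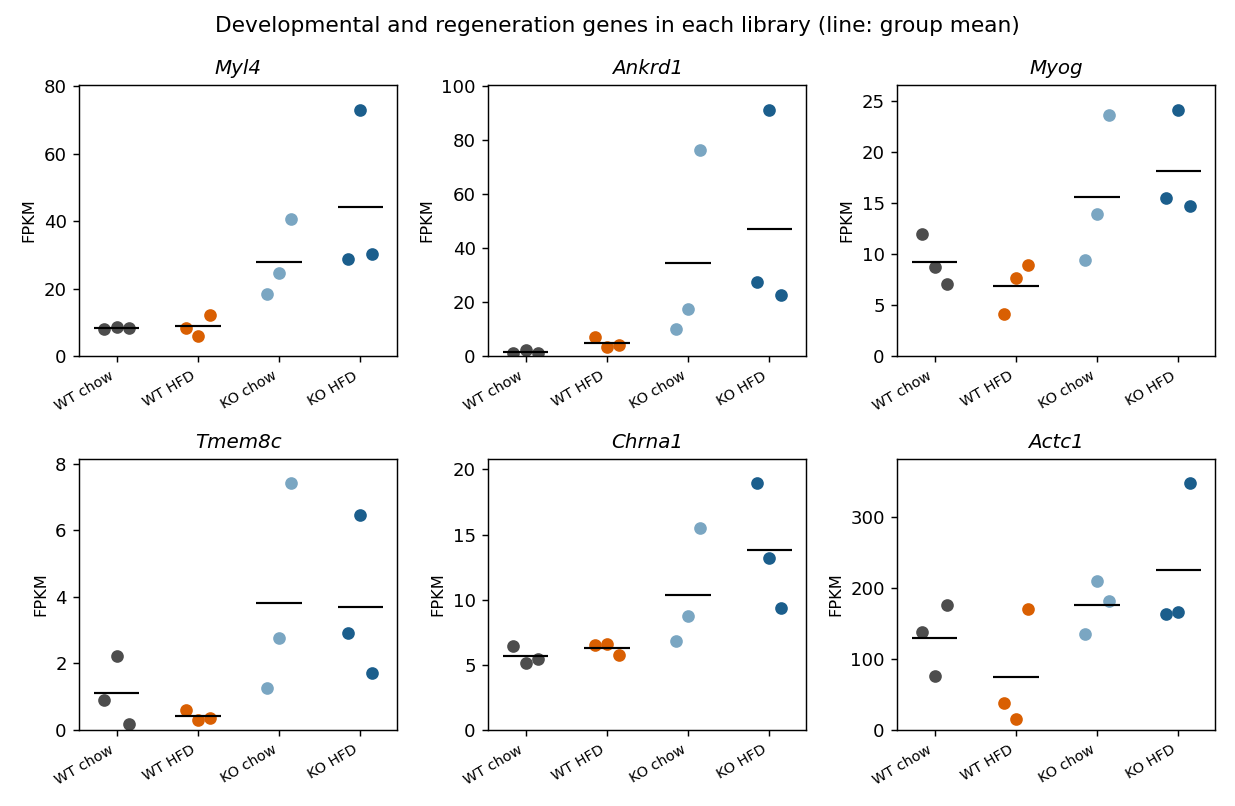
FPKM (y axis, linear, one scale per gene, from 0) of 6 genes of the developmental and regeneration list in each library by group (HFD, high fat diet), with one point per library and a line at the group mean. The 6 KO points of Myl4 (18.4 to 73.1 FPKM), Ankrd1 (9.95 to 91.3 FPKM) and Chrna1 (6.86 to 18.9 FPKM) lie above all 6 WT points, and the other 3 genes overlap between the genotypes.

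The genes most like each isoform across the 12 libraries were sought among 7298 genes with a mean of at least 5 FPKM, by Pearson's r of log2(FPKM + 1). The libraries share their groups, so that r is a description. For Myh7 they were Atp2a2, the calcium pump of slow muscle (r = 0.991, Spearman's rho = 0.986), Tnnc1, the slow and cardiac troponin C (r = 0.980), Tnnt1, the slow troponin T (r = 0.970), Myh6 (r = 0.961) and Tnni1 (r = 0.961). Without the 2 libraries of lowest Myh7 these r lay between 0.915 and 0.971. For Myh6, Tnnc1 (r = 0.993), Tnni1 (r = 0.991) and Myl2 (r = 0.990) led.

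For Myh2 the leading genes were Myl3, the slow essential light chain (r = 0.828, and 0.839 without the 2 libraries farthest from the median of Myh2), Hspa1l (0.813 and 0.637), Klf10 (0.794 and 0.404), Myoz2 (0.782 and 0.820) and Tpm3, the slow tropomyosin (0.777 and 0.878). The relation to Klf10 rested on those libraries. Myh2 itself went with Myh6 (r = 0.777) and Myh7 (r = 0.701). For Myh1 they were Mb, the oxygen store myoglobin (r = 0.961, rho = 0.944, and 0.957 without the 2 farthest libraries), Lyrm5 (r = 0.947), Tmem218 (r = 0.941), Ndufs8 of respiratory complex I (r = 0.940) and 1810049H13Rik (r = 0.938). Mb was 3186, 2683 and 2197 FPKM in WT chow mice, 6173, 3562 and 3894 FPKM in WT HFD mice, 1552, 2245 and 2398 FPKM in KO chow mice and 2135, 2858 and 2083 FPKM in KO HFD mice. The high library of Myh1 was also that of Mb. Between Myh1 and Myh7 r was -0.41 over 12 libraries and 0.694 without replicate 1 of WT HFD mice and replicate 3 of KO HFD mice, so that the negative value rested on those.

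Likeness for the developmental chains was added after the values were seen. Myh3 went with Uchl1, a ubiquitin hydrolase (r = 0.958, rho = 0.923), Cx3cl1, a chemokine (r = 0.949), and Tubb6, a β-tubulin (r = 0.941), with 0.892 to 0.910 left after removal of the 2 highest Myh3 libraries. Uchl1 was 2.75 to 5.73 FPKM in the 6 WT libraries and 6.99 to 32.7 FPKM in the 6 KO libraries. For Myh8 the highest r was 0.873, with Atp6v0a2, and 0.693 without the 2 farthest libraries, lower than the best partner of the other isoforms except Myh2. Myh3 and Myh8 did not go together (r = -0.11).

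**Figure D5:**
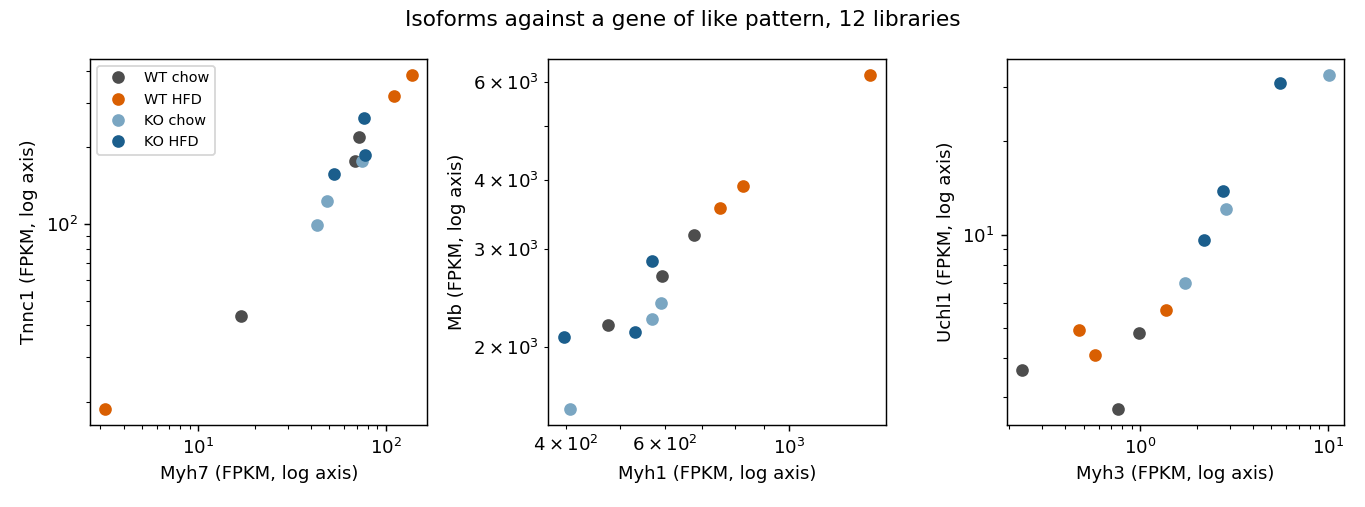
FPKM of Tnnc1 against Myh7, Mb against Myh1 and Uchl1 against Myh3 (all axes logarithmic) in the 12 libraries, coloured by group (HFD, high fat diet). Tnnc1 follows Myh7 down to the library with 3.20 FPKM, Mb follows Myh1 with WT HFD mice at the top, and the KO libraries take the upper right of the Myh3 panel.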

How the data were processed

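Total RNA of hind leg muscle was sequenced by the authors as paired-end reads. Per the labels, the submitters' processing notes name TopHat2 2.0.8b, Cuffdiff 2.1.1 and the build mm10, and annotation and filters are not given in the sources used here. The authors deposited FPKM values for each library, unpooled, in 23179 rows for 22923 symbols, and that unit was read from the values. Read counts are unknown, and intervals cover the spread between libraries only.

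Of repeated symbols, the row of highest mean was used. Values were taken to log2(FPKM + 1), and genes with at least 1 FPKM in at least 3 libraries were fitted with limma 3.58.1 in R 4.3.3 (4 group means, 8 residual degrees of freedom for the isoforms, variance trend, Benjamini-Hochberg over 11945 genes, threshold 0.05). Exact zeros of genes with a median of at least 100 FPKM were set missing, which touched none of the 6 isoforms tested. The planned rule left libraries with Myh1, Myh2 or Myh4 at 0 out of the shares. Myh4 was at 0 in all 12, so all libraries were kept, as listed beforehand as the alternative to that rule. Shares were compared by exact two-sided permutation of library labels (20 arrangements, or 400 within strata for averaged comparisons). The code was tested on simulated data.

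Members, gene lists and tests were chosen with earlier results of these data known. Named were all members, Cryab and Hspb2, and from each list genes past the threshold, the 2 with the highest mean and the 2 with the smallest unadjusted p in an averaged comparison, and for the adult isoforms the 5 genes most like each. Coding sequences and positions are from GENCODE M21 (Python 3.11.15, Biopython 1.88). Alternatives were a pseudocount of 0.1, no filter, zeros as deposited, size factors (0.998 to 1.01), quantile normalization, only the groups compared, the replicate number as a block, other denominators and row sums for shares, and each library left out. The joint removal of both WT libraries with the lowest Myh7 was chosen after seeing the data.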

Additional observations from a re-analysis of the deposited data

How the results depend on the processing

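The zero filter as planned gave no shares, since Myh4 was listed at 0 in all libraries. Of the other settings, no filter, zeros as deposited, size factors, quantile normalization, only the groups compared, rows of a symbol summed and the adult isoforms as denominator changed no direction and no call. Size factors and quantile normalization moved the median of all genes by -0.026 to 0.0073 (log2). A pseudocount of 0.1 turned the genotype difference of Myh8 from 2.68e-04 to -2.63e-04. The replicate numbers do not pair the mice. Correlations of the deviations of same-numbered libraries lay between -0.825 and 0.422, and the replicate block changed no call in limma (Myh3 between genotypes 1.43, adjusted p = 0.0905, and 0 isoforms past the threshold). For the shares the block flipped the signs of differences over 3 replicates, too few for any call to arise. Leaving out both WT libraries with the lowest Myh7 turned the Myh7 share between genotypes to -0.24 points on normal chow, -1.57 on high fat diet and -0.90 averaged, the Myh2 share for diet to 0.086 in WT mice and 2.39 averaged, the Myh1 share to -2.28 for diet in WT mice and 0.34 for genotype on normal chow, and the averaged genotype difference (log2) of Myh6 to -0.56 and of Myh7 to -0.62. It left Myl4 at 1.83 and Ankrd1 at 3.15, past no threshold (adjusted p = 0.0777 each). With each library left out in turn the share differences ranged, in points, from -2.55 to 0.088 (Myh2, genotype on normal chow), -3.24 to 2.30 (Myh2, diet averaged), -0.78 to 3.86 (Myh7, diet in WT), -0.24 to 2.11 (Myh7, genotype on normal chow), -1.57 to 3.07 (Myh7, genotype on high fat diet), -0.17 to 2.15 (Myh7, genotype averaged), -3.59 to 13.1 (Myh1, diet in WT), -2.96 to 0.34 (Myh1, genotype on normal chow) and -4.96 to 3.38 (Myh1, diet averaged). The log2 differences ranged from -0.27 to 0.50 (Myh6, genotype averaged), -0.36 to 0.91 (Myh7, diet averaged), -0.29 to 0.98 (Myh7, genotype averaged), -0.088 to 0.10 (Myh8, genotype averaged), -0.29 to 0.036 (Myh2, genotype averaged), -0.30 to 0.013 (Myh1, genotype on normal chow), -0.23 to 0.093 (Myh1, diet in KO), 1.14 to 1.64 (Myh3, genotype averaged), 1.62 to 1.96 (Myl4) and 2.68 to 3.38 (Ankrd1), with 0 to 1 isoform past the threshold for genotype averaged. Where a direction turned, the cause was not tested. There were 3 libraries a group and FPKM without reads, and the limma intervals of Myh7 and Myh6 were wide. For diet in WT mice they ran from -2.53 to 2.22 (log2) for Myh7 and from -1.30 to 1.87 for Myh6. Shifts within these intervals, large ones included, were not excluded, and Myh4 was not tested.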
